A study of Rattus norvegicus with 12 samples.

Results

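Circulating microRNAs (miRNAs) of serum were compared with those of milk whey from the same lactating rats. The miRNAs considered were all those that the scanner software called detected on at least 1 of the 3 serum arrays or the 3 day 16 whey arrays, which gave 185 of the 388 miRNAs on the array. Serum was taken from 3 F344/N dams at weaning, 21 days postpartum, and whey from milk of the same 3 dams 16 days postpartum. Whey is milk from which fat, cells and casein had been removed by centrifugation and filtration, and the serum was filtered too. The dams carried no mutation and received no treatment other than anaesthesia and oxytocin before milking. Each array received 70 ng of total RNA from 1 rat, so all signals are per mass of RNA and not per volume of fluid. The fluid and the day of sampling cannot be told apart in this comparison, because serum came from day 21 only and the whey from day 16. The 6 arrays lay on 1 slide. Another slide held 6 arrays of whey from days 2 and 9, which entered only the normalization and the estimate of the spread.

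miRNAs are short RNAs that guide Argonaute proteins to messenger RNAs, mainly through the seed, bases 2 to 8 counted from the 5′ end, so that miRNAs with 1 seed have overlapping sets of targets. Outside cells they are carried in vesicles, in lipoproteins and in Argonaute complexes, which protect them from ribonucleases. Blood cells, platelets, endothelium and liver are known sources of the miRNAs of serum. In milk, the mammary epithelium that lines the alveoli and ducts is the main secretory tissue.

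The sequences below are those on which the comparison turned, with the seed in capitals. They are RefSeq mature sequences of the rat assembly GRCr8, and 163 of the 185 miRNAs were matched to one through their array probe. The first set is of miRNAs with large excesses in serum. miR-215 and miR-192 share a seed.
miR-451: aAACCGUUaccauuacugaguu
miR-139-3p: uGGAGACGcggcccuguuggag
miR-122: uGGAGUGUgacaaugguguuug
miR-215: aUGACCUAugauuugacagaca
miR-192: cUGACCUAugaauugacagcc
miR-10a-5p: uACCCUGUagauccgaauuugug

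The second set is of miRNAs with large excesses in day 16 whey. miR-141 and miR-200c come from 1 transcript on the minus strand of chromosome 4, chr4:159209525-159210033 in GRCr8.
miR-141: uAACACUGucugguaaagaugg
miR-200c: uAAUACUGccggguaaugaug
miR-31: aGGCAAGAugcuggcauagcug
miR-96: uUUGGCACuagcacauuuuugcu
let-7a: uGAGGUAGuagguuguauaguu
let-7b: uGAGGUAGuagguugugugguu
let-7f: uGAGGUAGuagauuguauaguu
let-7i: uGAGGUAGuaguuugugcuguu

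The third set holds miRNAs that share a seed and yet differed from each other between the fluids, beginning with the miR-15/16 group.
miR-16: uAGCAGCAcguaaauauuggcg
miR-15b: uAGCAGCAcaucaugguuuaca
miR-497: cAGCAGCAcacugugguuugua
miR-195: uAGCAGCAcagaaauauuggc
miR-322: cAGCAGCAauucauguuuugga
miR-23a: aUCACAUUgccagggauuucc
miR-23b: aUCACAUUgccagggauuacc
miR-27a: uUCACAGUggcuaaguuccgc
miR-27b: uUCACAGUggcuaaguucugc
miR-146a: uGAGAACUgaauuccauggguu
miR-146b: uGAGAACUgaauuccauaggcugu

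The summed miRNA signal of an array was 161388.7, 123708.2 and 90001.9 units in serum of rats 1, 2 and 3, against 76845.1, 120358.9 and 103472.2 units in their day 16 whey. Between 145 and 165 miRNAs were called detected per serum array and between 122 and 140 per day 16 whey array. No spot was saturated. The values given below as log2 signals were quantile normalized, which gives each array the same set of values, so that the brightest miRNA of every array reads 14.55 and other bright ones take fixed steps below it. The lowest value that counts as above background, taken on each array from its dimmest miRNA with most spots well above background, averaged 3.36 in serum and 4.36 in day 16 whey. Where a fluid gave no detected signal or a mean under that limit, its limit took the place of its level, and the fold is a lower bound written as "at least". An adjusted p-value beside such a fold tests the measured values and not the bound. A signal set to the floor of 1 reads 0.00.

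The fluids differed in most of their miRNAs. Of the 185, 68 were higher in serum and 73 were lower in serum, and 44 did not pass the test (limma, adjusted p below 0.05). Among all 188 miRNAs tested in the series, 75% were called, 36.2% as higher and 38.8% as lower, so that these counts are the background for every group below. The calls included 18 miRNAs whose means lay under the background limits in both fluids. Among the 88 miRNAs detected in both fluids with both means above the limits, 28 were higher and 46 lower in serum. The values of the serum arrays did not overlap those of the day 16 whey arrays for 144 of the 185, against a background of 76.6%. The median difference of the 185 was 0.16 on the log2 scale, and that of all tested miRNAs 0.11. How evenly the calls split depended on the scaling. Of the calls, 48.2% were higher in serum after quantile normalization, 58.3% after scaling to the 75th percentile and 64.7% without normalization, and the median log2 difference of all tested miRNAs was 0.11, 0.49 and 0.90 under these 3 scalings. No call in favour of serum was lost under the other 2 scalings, whereas 14 and 25 calls in favour of day 16 whey were lost, and 12 and 17 miRNAs that had not passed the test became higher in serum.

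**Figure D1:**
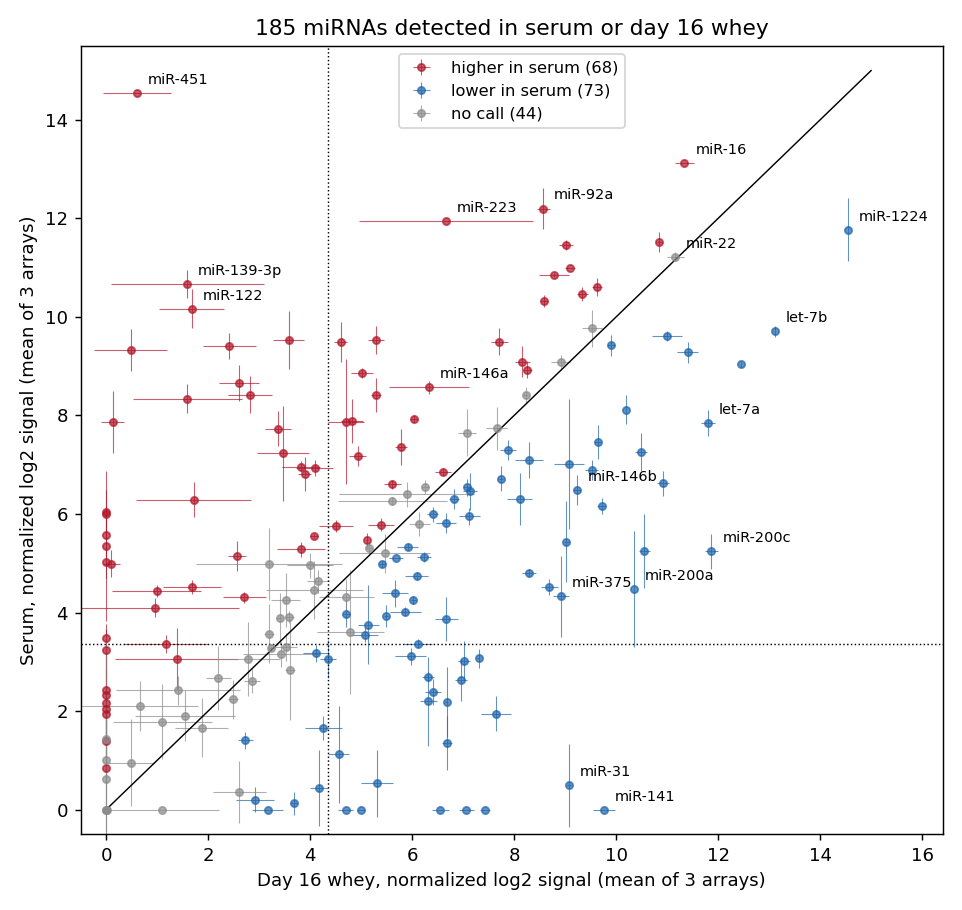
Mean normalized log2 signal of the 185 miRNAs in serum (vertical axis) and in day 16 whey (horizontal axis), 3 arrays each, with SD bars, coloured by the test. The solid line marks equal means and the dotted lines the mean background limits of 3.36 in serum and 4.36 in day 16 whey. miR-451 stands at the upper left, miR-141 and miR-31 at the lower right, and miR-22 on the line.

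Detection alone separated part of the miRNAs. Serum had 168 of the 185 and day 16 whey had 143, and 126 were detected in both. Thus 42 were detected in serum and on no day 16 whey array, and 17 in day 16 whey and on no serum array. A stricter count, with detection on all 3 arrays of a fluid and on none of the other, gave 23 for serum and 11 for day 16 whey. Among the 106 miRNAs detected on all 6 arrays, 33 were higher and 53 lower in serum, with a median difference of -0.42. In this set, where both fluids gave a detected signal, 41 called miRNAs differed by at least 2 log2 units, 15 of them higher and 26 lower in serum.

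The largest excess in serum was that of miR-451, which red blood cell precursors make without Dicer, by cleavage in Argonaute 2. It was the brightest miRNA of each serum array, at 14.55 in all 3 rats, against 1.33, 0.00 and 0.49 in day 16 whey. Serum was at least 1170-fold higher (adjusted p = 3.6e-09). miR-451 took 17.2%, 13.7% and 13.3% of the summed signal in the 3 serum arrays and at most 0.00224% in day 16 whey. It was the only detected member of the erythroid list, and miR-144, made from the same transcript, was detected on none of the 6 arrays. How far lysis of red cells contributed was not tested.

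White blood cell miRNAs followed the same direction. miR-223, a miRNA of neutrophils and other myeloid cells, read 11.94 in all 3 sera, against 5.40, 8.60 and 5.97 in day 16 whey. The groups did not overlap, and serum was 39.1-fold higher (log2 difference 5.29, SE 0.69, adjusted p = 5e-05). miR-150, a miRNA of mature lymphocytes, read 7.28, 7.77 and 8.53 in serum, against 0.00, 0.40 and 0.00 in day 16 whey. It was at least 11.3-fold higher in serum. miR-342-3p, also on the lymphocyte list, read 8.34, 8.60 and 9.05 in serum, against 2.51, 2.28 and 3.04 in day 16 whey (at least 19.8-fold higher in serum). Of the myeloid list of 3, miR-223 and miR-142-5p were higher in serum and miR-142-3p did not pass the test. miR-142-5p read 4.24, 3.89 and 4.19 in serum, with a mean under the whey limit, so no least fold is given. Both measured members of the lymphocyte list were higher. miR-142-5p and miR-150 were detected on no day 16 whey array and so entered through serum alone. miR-126, made in endothelium and found in platelets, read 5.42, 6.31 and 6.23 in serum and 0.00 on every day 16 whey array, at least 3.1-fold higher in serum (adjusted p = 2.5e-09).

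Liver miRNAs were among the brightest of the serum excess. miR-122, the most abundant miRNA of hepatocytes, read 9.94, 9.94 and 10.62 in serum, against 0.98, 1.83 and 2.23 in day 16 whey, where no array detected it. Serum was at least 56.1-fold higher (adjusted p = 2e-08). miR-215 and miR-192, a pair with 1 seed made in liver, kidney and gut, were both higher in serum. miR-215 read 9.05, 9.12 and 9.82 in serum, against 0.00, 0.13 and 1.30 in day 16 whey, at least 31.5-fold. miR-192 read 9.33, 9.19 and 9.94 in serum, against 4.72, 4.61 and 4.47 in day 16 whey, and was 29.5-fold higher (adjusted p = 5e-05). The sum of the liver and gut list was 2.78%, 2.76% and 5.16% of the signal in serum of rats 1, 2 and 3, against 0.0240% to 0.0301% in day 16 whey. All 3 of its detected members were higher in serum, against a background of 36.2%. Of these, miR-122 and miR-215 were detected on no day 16 whey array and so entered through serum alone. miR-194 was detected on none of the 6 arrays.

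Muscle miRNAs showed more spread among the sera than those of liver. miR-1, made in heart and skeletal muscle, read 6.31, 6.12 and 3.60 in serum of rats 1, 2 and 3, against 0.00 on each day 16 whey array. It was at least 1.98-fold higher in serum (adjusted p = 1.2e-05). With a floor of 16 the log2 difference of miR-1 was 1.48 (adjusted p = 0.029). miR-133b read 8.53, 8.67 and 6.40 in serum, against 5.01, 4.33 and 4.79 in day 16 whey, an 8.91-fold excess (adjusted p = 0.0043). Without serum of rat 3 the log2 difference of miR-133b was 3.88 (adjusted p = 0.0012), against 3.16 with all 3 sera. Serum of rat 3 was the lowest for both, and the same serum was the highest for the 3 liver miRNAs. Of the 4 detected muscle miRNAs, miR-133a and miR-206 did not pass the test, with log2 differences of 0.36 and 1.80. Both lay under the background limit in day 16 whey. miR-206 passed the test after scaling to the 75th percentile (2.45, adjusted p = 0.021), without normalization (2.86, adjusted p = 0.024), with normexp background correction (0.29, adjusted p = 0.011), with a floor of 16 (0.94, adjusted p = 0.017) and without whey of rat 3 (2.30, adjusted p = 0.049). miR-133a passed without whey of rat 1 (0.93, adjusted p = 0.023). The list took 0.612%, 0.800% and 0.172% of the serum signal and 0.0339% to 0.0429% of the day 16 whey signal.

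Other large excesses in serum had no single tissue in common. miR-139-3p, whose hairpin lies within Pde2a, read 10.35, 10.79 and 10.87 in serum, against 0.00, 1.78 and 2.99 in day 16 whey, where 1 array detected it. Serum was at least 79.6-fold higher (adjusted p = 1e-05). miR-10a-5p and miR-10b, encoded in the Hox gene clusters, were at least 33.2-fold and at least 15.9-fold higher. miR-214 and miR-199a-3p, a pair from 1 transcript opposite to Dnm3 that is typical of stromal cells, were at least 34.9-fold and at least 16.8-fold higher. miR-143, which smooth muscle and fibroblasts make, was lower in serum, at 9.19, 9.52 and 9.12, against 11.52, 11.17 and 11.52 in day 16 whey (log2 difference -2.12, SE 0.57, adjusted p = 0.0064). The stromal list thus had 3 higher and 1 lower member, but the call of miR-143 was lost without normalization (-1.56, adjusted p = 0.051). The remaining higher member, miR-199a-5p, read 0.54, 2.89 and 2.43 in serum and 0.00 on each day 16 whey array. It was detected on 1 serum array only, and both its means lay under the background limits. miR-128, best known from brain, read 9.82, 9.25 and 9.52 in serum, against 5.42, 5.30 and 5.13 in day 16 whey, and was 19.0-fold higher. miR-219-5p, the other detected member of the brain list, was lower by 0.73 on the log2 scale in quantile normalized values and higher by 0.17 without normalization, and its call was lost under both other scalings.

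**Figure D2:**
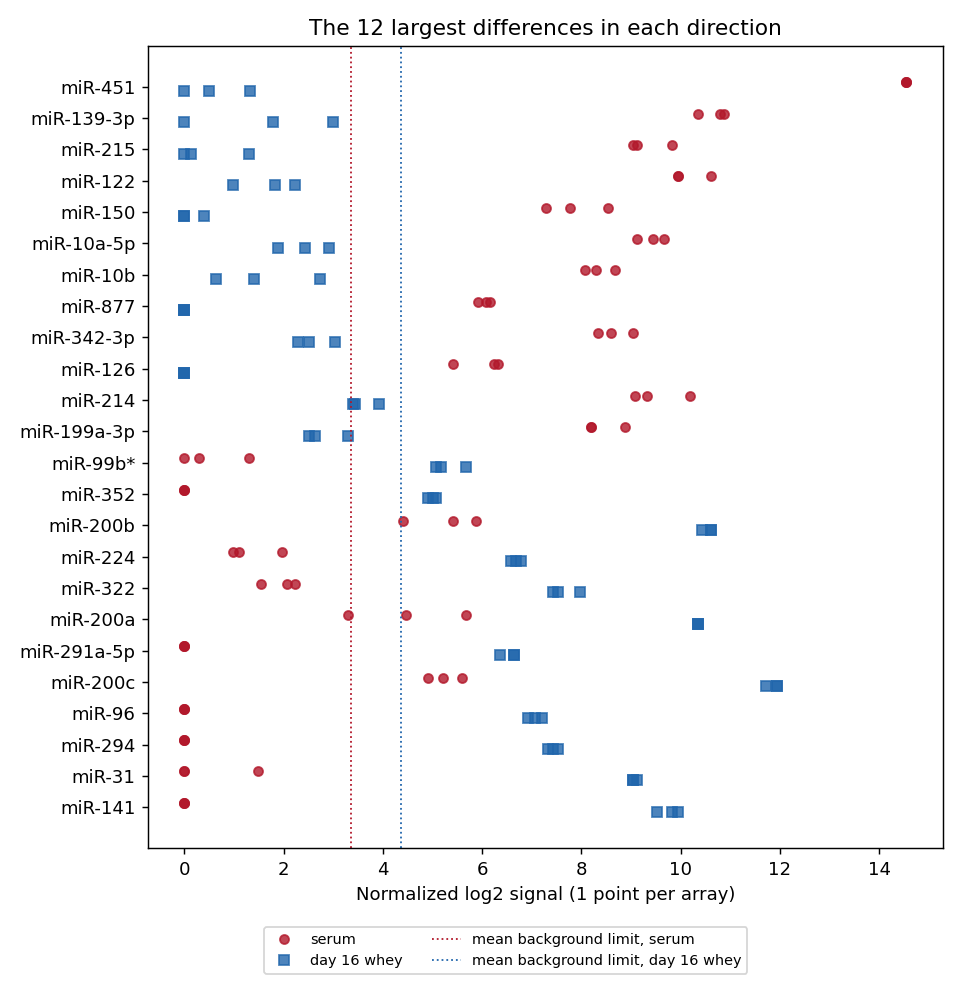
Normalized log2 signal on each array for the 12 largest called differences in each direction, with serum as circles above day 16 whey as squares, 3 arrays each. Dotted lines mark the mean background limits. The circles and squares of no miRNA overlap, and the day 16 whey values of all 12 miRNAs at the top lie under the whey limit.

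Every detected miRNA of the miR-17 cluster and its paralogous clusters was higher in serum. These miRNAs promote proliferation and are transcribed by Myc. The background share of higher calls was 36.2%, and here 11 of 11 were higher, with a median log2 difference of 2.07. Of these 11, 2 (miR-20b-5p and miR-363) were detected on no day 16 whey array and so entered through serum alone. Both means of miR-20b-5p lay under the background limits. All 11 were higher under both other scalings. miR-92a read 12.44, 11.72 and 12.44 in serum, against 8.60, 8.43 and 8.67 in day 16 whey, a 12.4-fold excess (adjusted p = 2.1e-07). miR-18a read 8.15, 7.52 and 7.52 in serum, against 3.26, 3.67 and 3.17 in day 16 whey, at least 10.4-fold. At the other end were miR-106b with a 1.90-fold excess and miR-19a and miR-20a with 1.99-fold and 2.00-fold excesses. The miR-17 transcript on chromosome 15 (chr15:98587848-98588632, GRCr8) encodes 6 of these miRNAs. miR-17-5p, miR-19b and miR-92a are also encoded on chromosome X, so their differences cannot be assigned to a locus. Of the others, miR-19a and miR-20a had log2 differences of 0.99 and 1.00, and miR-18a was at least 10.4-fold higher in serum. These members of 1 transcript thus differed unequally between the fluids. The miR-130 and miR-301 family, which has 3 called members of 4, was higher in serum as well, by 3.46-fold for miR-130a, at least 5.57-fold for miR-130b and at least 3.82-fold for miR-301a. miR-210, which is induced by hypoxia, was 8.41-fold higher in serum. The miR-17 group took 15.7%, 13.4% and 15.4% of the serum signal, against 2.59%, 3.24% and 2.38% of the day 16 whey signal.

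miRNAs of epithelium were among those with the largest folds in favour of day 16 whey. The miR-200 family holds epithelial cells in their state by repressing Zeb1 and Zeb2, and all 5 members were lower in serum, against a background of 38.8% lower calls. miR-141 read 0.00 in all 3 sera and was detected in none, against 9.52, 9.94 and 9.82 in day 16 whey, an excess in whey of at least 84.5-fold (adjusted p = 5.1e-11). miR-200c read 5.21, 4.91 and 5.60 in serum, against 11.94, 11.94 and 11.72 in day 16 whey. This was a 99.2-fold higher level in day 16 whey, and the largest difference among miRNAs detected on all 6 arrays (log2 difference -6.63, SE 0.21, adjusted p = 2.4e-09). miR-200a read 5.67, 3.30 and 4.47 in serum of rats 1, 2 and 3, against 10.35 in each day 16 whey. miR-200b read 5.87, 4.41 and 5.42 in serum, against 10.62, 10.62 and 10.43 in day 16 whey, and miR-429 read 6.12, 4.53 and 5.67 in serum, against 8.99, 9.08 and 8.99 in day 16 whey. Serum of rat 1 was the highest and serum of rat 2 the lowest for these 3 miRNAs. The family took 0.350%, 0.124% and 0.259% of the serum signal, against 7.81%, 9.11% and 7.67% in day 16 whey.

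Most other epithelial miRNAs shared this direction, and miR-203 and miR-182 did not pass the test. miR-31 read 0.00, 0.00 and 1.48 in serum, against 9.12, 9.05 and 9.05 in day 16 whey, an excess in whey of at least 52.6-fold (adjusted p = 7.5e-09). miR-375, a miRNA of pancreatic islets and of secretory and gut epithelium, read 3.71, 4.02 and 5.26 in serum, against 9.05, 8.75 and 8.95 in day 16 whey. miR-205, a miRNA of basal epithelial cells, read 1.22, 2.38 and 2.99 in serum, against 6.40, 6.12 and 6.44 in day 16 whey, at least 7.78-fold higher in whey. miR-203, known from keratinocytes, read 3.11, 3.35 and 4.24 in serum, against 3.30, 3.17 and 3.11 in day 16 whey, close to the background limits of both fluids (adjusted p = 0.45). miR-96, miR-183 and miR-182 come from 1 transcript of sensory and epithelial cells on chromosome 4. miR-96 was at least 13.0-fold and miR-183 at least 12.2-fold higher in day 16 whey, while miR-182 lay at the floor on all 3 serum arrays and read at most 0.04 on the day 16 whey arrays (adjusted p = 0.86). As these are bulk fluids, a larger contribution of a cell type and more release per cell cannot be told apart.

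The let-7 family held a large share of the whey signal. Its share of the summed signal was 3.34%, 3.56% and 3.63% in serum, against 24.8%, 27.0% and 24.7% in day 16 whey. let-7 miRNAs rise as cells differentiate and repress Lin28, Hmga2 and Ras genes. All 8 members were lower in serum, with a median log2 difference of -3.51 in which miR-98, under the background limit in serum, entered with its measured value. let-7b, the brightest, read 9.60, 9.82 and 9.73 in serum, against 13.12 on each day 16 whey array (10.6-fold higher in whey). let-7f differed most, at 6.44, 6.49 and 6.92 in serum, against 10.99, 10.79 and 10.99 in day 16 whey, 19.8-fold higher in whey (adjusted p = 2e-08). let-7i differed least, at 9.67, 9.33 and 9.25 in serum, against 9.94, 9.82 and 9.94 in day 16 whey. Its log2 difference was -0.48 (SE 0.13, adjusted p = 0.0077) and turned to 0.36 without normalization (adjusted p = 0.34), whereas the other 7 stayed lower under both other scalings. The mature sequences of let-7a and let-7c match at 21 of 22 bases and those of let-7a and let-7i at 18 of 22, so hybridization of 1 family member to the probe of another can blur such differences.

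**Figure D3:**
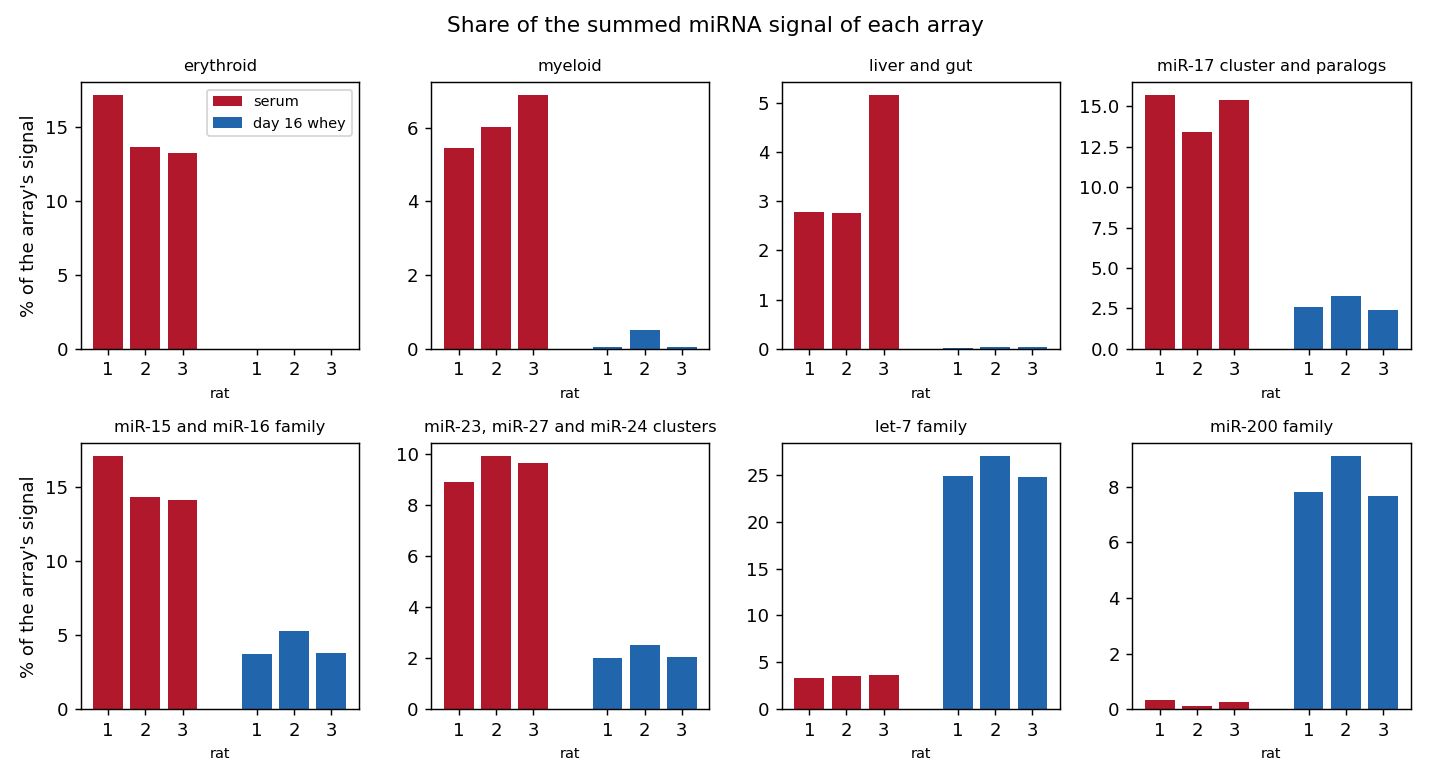
Share of the summed miRNA signal of each array, in percent, taken by 8 groups of miRNAs, with the 3 sera left of the 3 day 16 wheys. Each panel has its own axis, starting at 0. The let-7 family took 3.34% to 3.63% of serum and 24.7% to 27.0% of day 16 whey, and the erythroid bars of day 16 whey are too small to see.

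Several smaller families were lower in serum. miR-103 and miR-107, which regulate lipid and insulin metabolism, were 11.8-fold and 4.21-fold higher in day 16 whey. miR-26a and miR-26b were 6.21-fold and 4.52-fold higher there. miR-152 and miR-148b-3p, which share a seed, were 6.96-fold and 2.41-fold higher in day 16 whey, but the call of miR-148b-3p was lost without normalization (-0.21, adjusted p = 0.64). miR-101a and miR-101b, repressors of Ezh2, were lower in serum. miR-101a was detected on no serum array, against 6.69, 6.65 and 6.71 in day 16 whey, and miR-101b was at least 12.6-fold higher in day 16 whey. The cluster on chromosome 1 that encodes let-7e, miR-99b and miR-125a (chr1:67350064-67350759, GRCr8, within Spaca6) gave 5 mature miRNAs. All 5 were lower in serum, against a background of 38.8%. Of these, miR-99b was detected on no serum array and so entered through whey alone, and both its means lay under the background limits. The log2 differences of let-7e and miR-125a-3p, which were above background in both fluids, were -4.17 and -1.78, and the call of miR-125a-3p was lost without normalization. miR-21, abundant in many cell types, was 2.61-fold higher in day 16 whey, at 9.52, 9.73 and 9.60 in serum and 10.87, 11.33 and 10.79 in day 16 whey. miR-1224, which is spliced from an intron of Vwa5b2 and bypasses Drosha, was the brightest miRNA of every day 16 whey array. It read 11.17, 12.44 and 11.72 in serum, against 14.55 in each day 16 whey, a 6.85-fold higher level in whey (adjusted p = 3e-06).

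The miRNAs that bypass Drosha or Dicer did not share a direction. miR-877, like miR-1224 a mirtron, read 5.92, 6.15 and 6.07 in serum and 0.00 on all 3 day 16 whey arrays, at least 3.22-fold higher in serum (adjusted p = 1.1e-09). It had been detected on all 3 day 2 whey arrays. miR-484, cut from a capped hairpin in mouse cells, was at least 1.89-fold higher in serum. miR-320 read 5.83, 5.53 and 6.03 in serum, against 6.15, 5.92 and 6.35 in day 16 whey. Its log2 difference of -0.34 did not pass the test (adjusted p = 0.096), and under scaling to the 75th percentile it became 0.46 (adjusted p = 0.043). With the rat as a block the difference of -0.34 passed (adjusted p = 0.007), and without serum of rat 3 it was -0.46 (adjusted p = 0.039).

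The miR-290 cluster, known from mouse embryonic stem cells, had 4 detected members of 8. miR-294 and miR-291a-5p were at the floor on all 3 serum arrays and undetected there, and they were at least 16.7-fold and at least 9.09-fold higher in day 16 whey, where miR-294 read 7.42, 7.33 and 7.52. miR-292-5p was lower in serum too, by 2.74 on the log2 scale. miR-290 went the other way, at 4.79, 5.30 and 5.36 in serum, against 2.38, 2.74 and 2.56 in day 16 whey, at least 1.74-fold higher in serum. Of the 31 miRNAs of the imprinted Dlk1-Dio3 region on the array, 7 were detected. Of these, 4 were higher in serum (among them miR-370, at least 2.31-fold) and miR-494 was lower, against backgrounds of 36.2% and 38.8%. However, 6 of the 7 were detected on no day 16 whey array, so the 4 higher ones entered through serum alone. Both means of miR-341 and of miR-539 lay under the background limits. Serum of rat 2 stood apart for miR-494, at 8.53, against 6.40 and 6.12 in the other 2 sera and 9.25, 9.25 and 8.75 in day 16 whey. The call of miR-494 was lost without normalization (-1.23, adjusted p = 0.092).

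**Figure D4:**
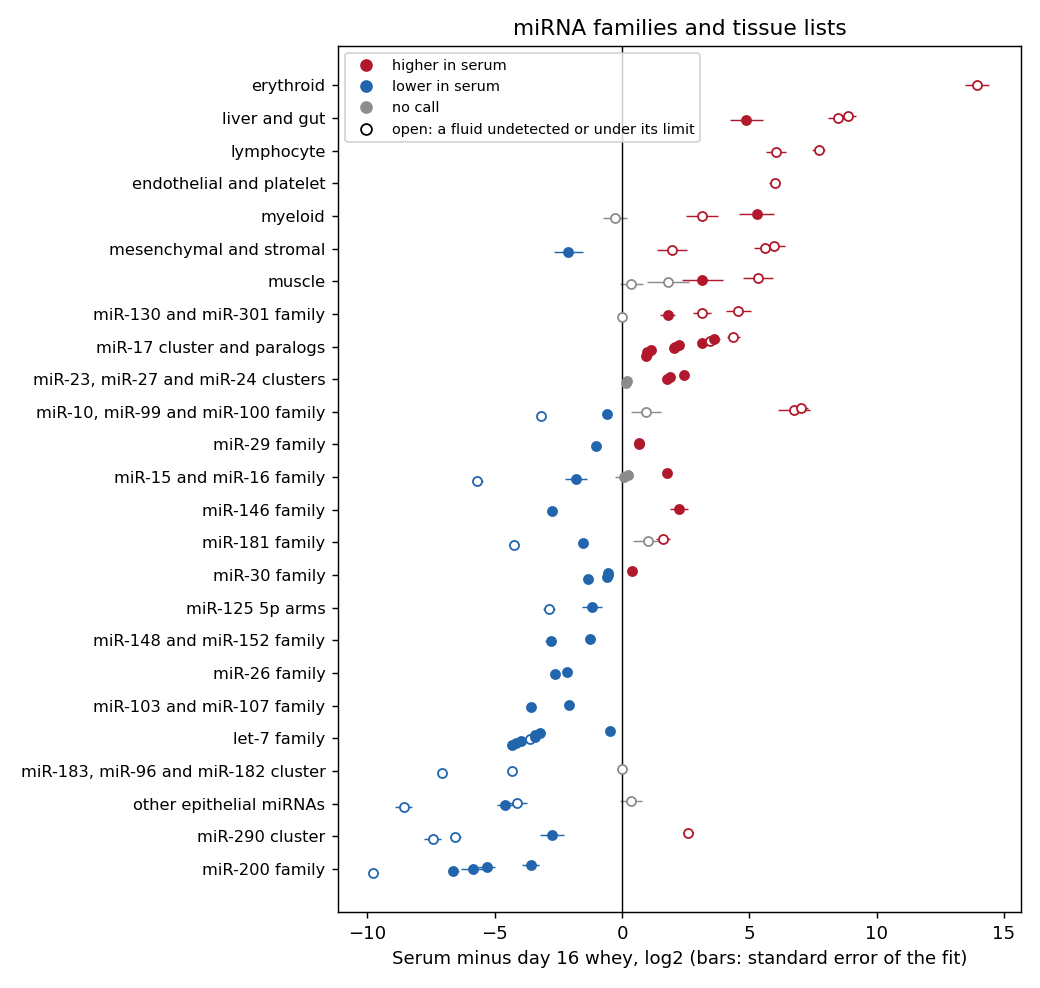
Log2 difference of serum minus day 16 whey for each detected member of 25 families and tissue lists, with the standard error of the fit. Points right of the line at 0 are higher in serum, and open points have a fluid that was undetected or under its background limit. The miR-17 group lies wholly to the right and the let-7 and miR-200 families wholly to the left, while the miR-15/16 and miR-181 groups lie on both sides.

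A shared seed did not fix the direction in every group. The 163 miRNAs with a matched sequence contained 25 groups with 1 seed, of 68 miRNAs in all. The 22 without one, among them miR-30b-5p, miR-30d, miR-200a, miR-200b and miR-429, entered no group. The miR-30 group, counted below as wholly lower, thus lacks miR-30d, which was higher in serum (log2 difference 0.39). In 4 groups every member was higher in serum, in 7 every member was lower, and in 4 there were calls in both directions. These counts moved with the scaling, to 6, 4 and 6 groups after scaling to the 75th percentile and to 6, 3 and 5 without normalization. Over all tested miRNAs 36.2% were called higher and 38.8% lower. How many such groups miRNAs without a common seed would form was not computed, so whether members of 1 seed were alike was not tested. The group with the widest range was AGCAGCA, in the miR-15/16 group, whose members repress Bcl2 and cyclins. miR-16 read 13.12 in all 3 sera, against 11.33, 11.52 and 11.17 in day 16 whey (3.44-fold higher in serum, adjusted p = 6.1e-07). miR-322 read 1.55, 2.07 and 2.23 in serum, against 7.52, 7.97 and 7.42 in day 16 whey, an excess in whey of at least 19.4-fold. Between these lay miR-15b at 0.24, miR-497 at 0.08 and miR-195 at -1.81 on the log2 scale, of which miR-15b and miR-497 did not pass the test. miR-15b passed as higher in serum after scaling to the 75th percentile (0.53, adjusted p = 0.017) and without normalization (0.94, adjusted p = 0.042), and the call of miR-195 was lost without normalization (-0.88, adjusted p = 0.16).

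miR-146a and miR-146b, which restrain signalling from Toll-like receptors, went in opposite directions although their first 22 bases differ at only 2 positions. miR-146a read 8.67, 8.43 and 8.60 in serum, against 5.60, 7.16 and 6.23 in day 16 whey (log2 difference 2.24, SE 0.35, adjusted p = 0.00018). miR-146b read 6.78, 6.19 and 6.49 in serum, against 9.19, 9.19 and 9.33 in day 16 whey (log2 difference -2.75, SE 0.20, adjusted p = 5.2e-07). In the miR-181 family, which tunes T cell receptor signalling, miR-181a was at least 14.5-fold higher in day 16 whey and miR-181c 2.94-fold, and miR-181d read 4.33, 4.19 and 4.41 in serum, against 2.23, 2.99 and 2.92 in day 16 whey, with a serum mean under the whey limit. miR-29a and miR-29c were 1.60-fold and 1.59-fold higher in serum, and miR-29b was 2.04-fold higher in day 16 whey. Without normalization the calls of miR-29b (-0.05, adjusted p = 0.92) and miR-181c (-0.59, adjusted p = 0.17) were lost.

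In the paralogous miR-23/27/24 clusters the miRNAs of 1 locus differed more than those of the other. miR-23a and miR-27a, encoded with a copy of miR-24 on chromosome 19 (chr19:40859455-40859843), were higher in serum. miR-23a read 11.52, 11.33 and 11.52 in serum, against 8.87, 9.12 and 9.08 in day 16 whey (5.40-fold, adjusted p = 9.9e-09), and miR-27a read 10.43, 10.35 and 10.19 in serum, against 8.53, 8.67 and 8.53 in day 16 whey (3.36-fold). miR-23b and miR-27b, encoded within Aopep with the other copy of miR-24 on chromosome 17 (chr17:1818669-1819482), did not pass the test. miR-23b read 9.25, 8.99 and 8.99 in serum, against 8.75, 8.87 and 9.12 in day 16 whey, with a 95% confidence interval of -0.12 to 0.44 for the log2 difference. miR-27b had an interval of -0.11 to 0.47. miR-23b passed as higher in serum after scaling to the 75th percentile (0.47, adjusted p = 0.0048) and without normalization (0.87, adjusted p = 0.040), and miR-27b did not (0.44 and 0.85, adjusted p = 0.061 and 0.059). Each pair differs at 1 base over the first 21, and the mature miR-24, higher in serum by 1.90 on the log2 scale, cannot be assigned to a locus.

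Differences between related miRNAs were also measured without any scaling between arrays, as the ratio of the 2 total signals within each array. The 58 pairs measured share a seed or a hairpin, have matched sequences and were detected on all 6 arrays. Pairs with miR-200b, miR-30b-5p or miR-30d, which had no matched sequence, are missing from them. The ratios of the 3 sera did not overlap those of the 3 day 16 wheys in 46 pairs (79.3%), and in 30 (51.7%) they differed by at least 1 log2 unit. Over all 5565 pairs of the 106 miRNAs detected on all 6 arrays these shares were 84.9% and 77.0%, so that related pairs did not exceed the background. The exact two-sided permutation test of 3 arrays against 3 cannot go below p = 0.10, the adjusted p over the pairs was 0.13 at best, and no pair could pass it. The log2 ratio of miR-146a to miR-146b was 1.78 ± 0.37 in serum and -3.15 ± 1.09 in day 16 whey (SD, n = 3 each, exact p = 0.10). That of miR-23a to miR-23b was 2.41 ± 0.27 in serum and 0.07 ± 0.09 in day 16 whey, and that of miR-27a to miR-27b was 1.91 ± 0.15 in serum and 0.38 ± 0.16 in day 16 whey (exact p = 0.10 each, n = 3). Ratios of miR-30a, miR-30c and miR-30e, which share the seed GUAAACA, overlapped between the fluids in all 3 pairs.

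**Figure D5:**
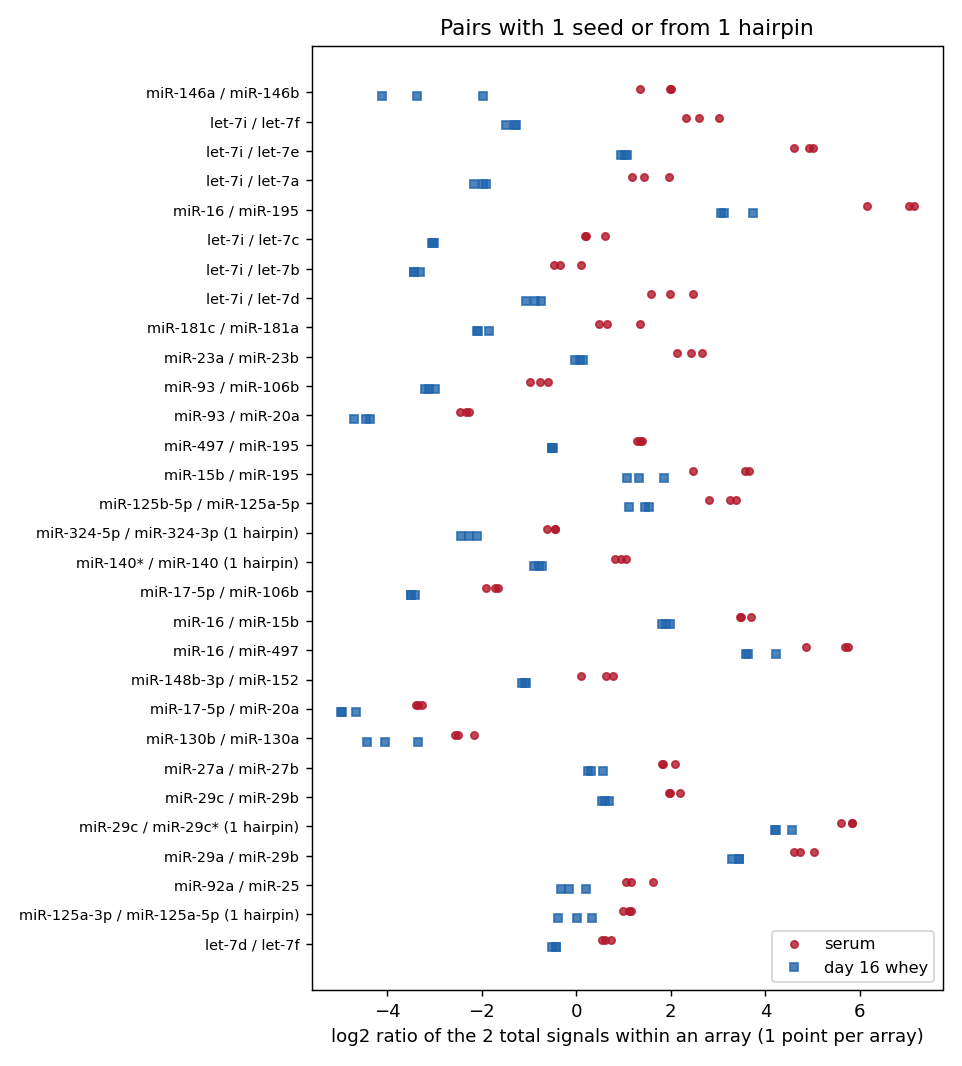
Log2 ratio of 2 unnormalized total signals within an array, in serum (circles, above) and day 16 whey (squares, below), 1 point per array. Shown are the 30 pairs of 1 seed or 1 hairpin, with matched sequences, whose mean ratio differed by at least 1 between the fluids. The first miRNA of each pair is relatively more abundant in serum. Only the shift between circles and squares is meaningful, because 2 probes may differ in brightness for equal amounts.

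The 2 arms of a hairpin could differ in the same way. miR-140*, from the cartilage-associated hairpin within Wwp2, was 14.3-fold higher in serum and its partner miR-140 3.69-fold, and their log2 ratio was 0.94 ± 0.11 in serum and -0.80 ± 0.08 in day 16 whey (SD, n = 3 each). miR-324-5p was at least 2.11-fold higher in serum, whereas miR-324-3p was lower in serum by 0.42 on the log2 scale after quantile normalization (adjusted p = 0.013) and higher by 0.44 after scaling to the 75th percentile (adjusted p = 0.0056). The log2 ratio of the 5p to the 3p arm, which no scaling affects, was -0.50 ± 0.09 in serum and -2.27 ± 0.17 in day 16 whey. miR-29c was higher and miR-29c* lower in serum. Both means of miR-29c* lay under the background limits, and its call was lost under both other scalings. Of the 15 star strands, 2 were higher and 7 lower in serum, against 3 and 4 after scaling to the 75th percentile and 4 and 3 without normalization. The shares over all tested miRNAs were 36.2% higher and 38.8% lower after quantile normalization. Like miR-29c*, miR-338* (called higher) and miR-7a* (called lower) had both means under the background limits.

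Some miRNAs differed little. Of the 20 that were detected on all 6 arrays and did not pass the test, 14 had both means above the background limits. For 3 of these the 95% confidence interval lay within 0.5 log2 units of 0, namely miR-22, miR-23b and miR-27b. miR-22, abundant in many tissues, read 11.33, 11.17 and 11.17 in serum, against 11.17, 10.99 and 11.33 in day 16 whey, with an interval of -0.19 to 0.31. These values are relative to the quantile normalized distribution, and without normalization miR-22 and miR-23b passed as higher in serum. miR-30a, miR-30c and miR-30e had log2 differences of -0.55 to -0.58, which became 0.11 to 0.17 after scaling to the 75th percentile. The other members of that family, miR-30b-5p and miR-30d, were lower by 1.34 and higher by 0.39 on the log2 scale, and the call of miR-30b-5p was lost without normalization and that of miR-30d without whey of rat 2, whey of rat 3 or serum of rat 3. For miR-212 and miR-685 the intervals reached from -1.62 to 2.65 and from -2.74 to 0.38, so that a difference of several fold was not detectable.

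Single arrays shaped some values. Day 16 whey of rat 2 had the highest levels of the 3 wheys for miR-223 (8.60), miR-146a (7.16) and miR-34a (6.78), and its myeloid list took 0.515% of the signal, against 0.0364% in rat 1 and 0.0571% in rat 3. In serum this share was 5.46%, 6.03% and 6.89%. Without that array the log2 difference was 6.26 for miR-223 (adjusted p = 2e-07) and 2.62 for miR-146a. miR-34a, a target of p53, read 6.35, 6.28 and 6.19 in serum, against 4.69, 6.78 and 5.36 in day 16 whey. It passed the test without whey of rat 2 (log2 difference 1.24, adjusted p = 0.0061) and not with it (0.66, adjusted p = 0.23), and with all arrays it also passed after scaling to the 75th percentile (1.38, adjusted p = 0.035) and without normalization (1.78, adjusted p = 0.039). Without serum of rat 3 the log2 difference of miR-1, taken against whey values at the floor, was 6.16, against 5.35 with it. The part of myeloid cells in the values of rat 2 was not tested.

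Absence in day 16 whey was not always absence in earlier whey. Of the 42 miRNAs detected in serum and not in day 16 whey, 27 were detected on none of the 9 whey arrays and 15 on at least 1 of the 6 from days 2 and 9. miR-122, miR-126, miR-150, miR-215 and miR-1 were among the 14 that all 3 sera and no whey array detected. miR-877, miR-370, miR-290 and miR-125b-3p were detected in all 3 sera and all 3 day 2 wheys. In the other direction, 6 of the 17 miRNAs detected in day 16 whey and not in serum (miR-141, miR-31, miR-96, miR-294, miR-291a-5p and miR-101a) were detected on all 6 earlier whey arrays, and 10 were detected on none of the 3 from day 2, such as miR-224 and miR-352. The day 2 arrays were dim, with summed signals of 22490.8 to 26246.3.

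Sequence features differed little between the directions. Mature sequences had a median GC content of 47.6% among the miRNAs higher in serum and 43.5% among those lower in serum, over ranges of 31.8% to 77.3% and 27.3% to 72.7%, and a median length of 22 bases in both. U was the first base of 29 of 61 and of 39 of 65. Of the 163 miRNAs with a matched sequence, 120 lay within another gene of the RefSeq annotation at 1 or more loci, without regard to strand. Whether these positions are exonic or intronic was not analysed here.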

How the data were processed

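Total RNA of serum and whey was labelled with 1 dye and hybridized by the authors to a rat miRNA array of 388 miRNAs with 20 spots each. The deposited intensity files of Agilent Feature Extraction 9.5.3.1 hold a background-subtracted total signal and a detection call per miRNA, not normalized between arrays. The spot intensities of the deposited series value table equal those of the scanner files and served as an alternative. The authors' quantile normalized log2 table was not used, because 12 of its columns carry no sample names.

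Total signals of all 12 arrays were quantile normalized, floored at 1 and log2 transformed. limma 3.58.1 (R 4.3.3) was fitted to 4 group means over the 188 miRNAs with a detection call in the series, with Benjamini-Hochberg adjustment at 0.05, two-sided, and was tested on simulated data beforehand. Folds were derived from log2 means, and confidence intervals have a level of 95%. The spread is understated for miRNAs that sat at the floor or at 1 rank throughout a group. The number of arrays, 3 per fluid, limits the precision. Pairs were tested with Python 3.11.15. The background limit of an array is its dimmest miRNA for which a share of 0.5 or more of the spots was well above background. Mature sequences and genes were taken from RefSeq (GRCr8), matched by name and probe.

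Both fluids came from the same 3 rats, so the rat numbers pair them. Their deviations from group means correlated at -0.0173, 0.0428 and -0.0443 between the fluids of 1 rat. The miRNAs and lists were chosen with earlier results of these data known. The text names the 12 largest called differences in each direction that were detected on all 3 arrays and of 1 sign in all 3 rats, the 10 smallest differences, up to 5 members of each list and those against its majority, both arms of hairpins and star strands, members that share a seed, and those detected on all 3 arrays of 1 fluid only. miR-21, miR-210, miR-685 and the single-array patterns were singled out after their values were seen. Alternatives were other scalings, background corrections, floors, filters and models, a block for the rat, and leaving out each array.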

Additional observations from a re-analysis of the deposited data

How the results depend on the processing

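Of 154 named miRNAs, 97 kept their direction and their side of the threshold under every alternative that could be computed. The count of miRNAs higher in serum was 68 and that of lower ones 73. The lower count was 47 without normalization, and the higher count was 33 when only the 106 miRNAs detected on all 6 arrays were tested, since fewer could be called. With the rat as a replicate block, which pairs the fluids of each dam, 67 were higher and 74 lower, and the call changed only for miR-320 and miR-500 among the 154 named miRNAs. Leaving out 1 array in turn gave 66 to 69 higher and 71 to 74 lower, and the calls of miR-125b-5p, miR-296*, miR-30d, miR-345-3p and miR-500 were then lost at least once. A floor of 16, which removes most of the differences of dim miRNAs, gave 59 higher and 66 lower. The number detected in serum and not in day 16 whey was 36 to 37 under stricter detection rules and 35 to 45 without 1 array, and that in day 16 whey and not in serum 16 to 19 and 16 to 20.

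Among the 154 named miRNAs, scaling turned the direction of 11 weak differences that passed the test under at least 1 of the 3 scalings. Differences that passed under none of them could turn too, such as that of miR-142-3p, from -0.28 to 0.17 after scaling to the 75th percentile and 0.57 without normalization. The cause was not tested. Calls in favour of day 16 whey were the ones lost, 14 after scaling to the 75th percentile and 25 without normalization. After scaling to the 75th percentile and without normalization, the log2 differences were 0.17 and 0.58 for miR-296*, 0.11 and 0.52 for miR-30a, 0.16 and 0.57 for miR-30a*, 0.17 and 0.58 for miR-30c, 0.13 and 0.54 for miR-30e, 0.46 and 0.86 for miR-320, and 0.44 and 0.85 for miR-324-3p. Without normalization only, they turned to 0.36 for let-7i, 0.17 for miR-219-5p, 0.35 for miR-345-5p and 0.34 for miR-99a. With normexp background correction, miR-23a* and miR-301b, both at the floor otherwise, read 0.07. Signals near background limit 97 of the 185 miRNAs to a least fold or to no fold.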
